A study of Mus musculus with 10 samples.

Results

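Nuclear receptors are transcription factors that bind DNA directly, many of them under the control of a small lipid-soluble ligand. The 10 receptor genes described here are Ppara, Ppard, Nr3c1, Nr4a1, Nr2f1, Nr2f2, Nr1d1, Nr1d2, Rora and Esrra. They were taken by symbol from a count table of 18103 genes, in which each of the 10 has a row, and were measured by RNA sequencing in 10 libraries of 2 mouse breast cancer cell lines. Py2T-LT cells are Py2T cells, a line from a mouse mammary tumour, kept in long-term culture. They gave 3 groups: controls, cells given a MEK inhibitor, and cells given bone morphogenetic protein 2 (BMP2) plus that inhibitor. No Py2T-LT group received BMP2 alone. MTΔECad cells are a mesenchymal breast cancer line named for the loss of E-cadherin, sampled as controls or with rosiglitazone, a synthetic agonist of PPARγ. All cells were harvested at 7 days, with 2 libraries a group from 2 independent experiments. Per the protocol, BMP2 was usually given at 200 ng/ml, PD98059, the MEK inhibitor, at 40 µM, and rosiglitazone at 2 µM. Controls received medium with DMSO. The labels give no dose for single samples and do not say whether BMP2-treated cells also received rosiglitazone, which the general protocol for differentiating cancer cells adds after BMP2.

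The receptors fall into groups by what they do. PPARα (Ppara) and PPARδ (Ppard) sense fatty acids, pair with retinoid X receptors and switch on genes of lipid use. The glucocorticoid receptor (Nr3c1) is held by chaperones until a glucocorticoid binds it. NUR77 (Nr4a1) is an orphan receptor made as an immediate early gene after stimulation. COUP-TFI (Nr2f1) and COUP-TFII (Nr2f2) are orphan receptors that mostly repress and that act in cell fate and mesenchymal development. RORα (Rora) activates, and REV-ERBα (Nr1d1) and REV-ERBβ (Nr1d2) repress, through the same DNA elements in the circadian clock. ERRα (Esrra) drives mitochondrial genes together with the PGC-1 coactivators.

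Library totals ran from 14659987 to 17249199 counts. Levels are in CPM, a gene's count relative to the TMM-scaled library total, given per library or as mean ± SD with n = 2. The words rose and fell are kept for an adjusted p under 0.05 (edgeR's quasi-likelihood test, Benjamini-Hochberg over 13149 tested genes), and ± after a log2 fold change is its standard error. Pearson correlations of log2 CPM between replicates, taken over genes, were 0.9928 to 0.9948, and the Py2T-LT controls differed most from each other (chi-square per gene 16.4, against 5.27 to 7.58 in the other groups). Mesenchymal markers were abundant in both lines, with Vim at 2756 to 5853 CPM. The summed level of 8 mesenchymal markers was 7991 to 10840 CPM in Py2T-LT controls, 8027 to 8399 with the inhibitor and 9439 to 10130 with the combination. In MTΔECad cells that sum was 13570 to 16200 CPM in controls and 10240 to 10630 with rosiglitazone. Control cells held 36.0 and 31.7 CPM of Cdh1, the E-cadherin gene, in Py2T-LT and 2.58 and 2.25 CPM in MTΔECad. Where the deleted part of Cdh1 lies is not given in the sources used here, so its counts do not check the deletion. The summed level of 8 epithelial markers was 637 to 688 CPM in Py2T-LT controls, 588 to 672 with the inhibitor and 311 to 334 with the combination, and in MTΔECad cells 283 to 294 in controls and 418 to 462 with rosiglitazone. Between 0 and 3 of the 8 were at 0 in both libraries of a group, and the part of these markers in the receptor changes was not tested. Summed over each list, haematopoietic, endothelial and skeletal muscle markers stayed between 0.268 and 7.17 CPM in every library.

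Nr2f1, Rora and Nr4a1 changed most with BMP2 and the MEK inhibitor, and for each of them the combination differed from the inhibitor alone. Nr2f1 fell stepwise and Nr4a1 fell with the combination, whereas Rora rose. Ppara, with 0 counts in the Py2T-LT controls, was counted in both treated groups and is described without a test. Nr3c1 rose equally with the inhibitor alone and with the combination. Nr2f2 and Esrra passed the test in none of the treatment comparisons. Rosiglitazone, in the other line, raised Nr4a1 alone among the 9 receptors tested here, those other than Ppara. The plot of log2 fold changes shows these responses beside each other.

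**Figure D1:**
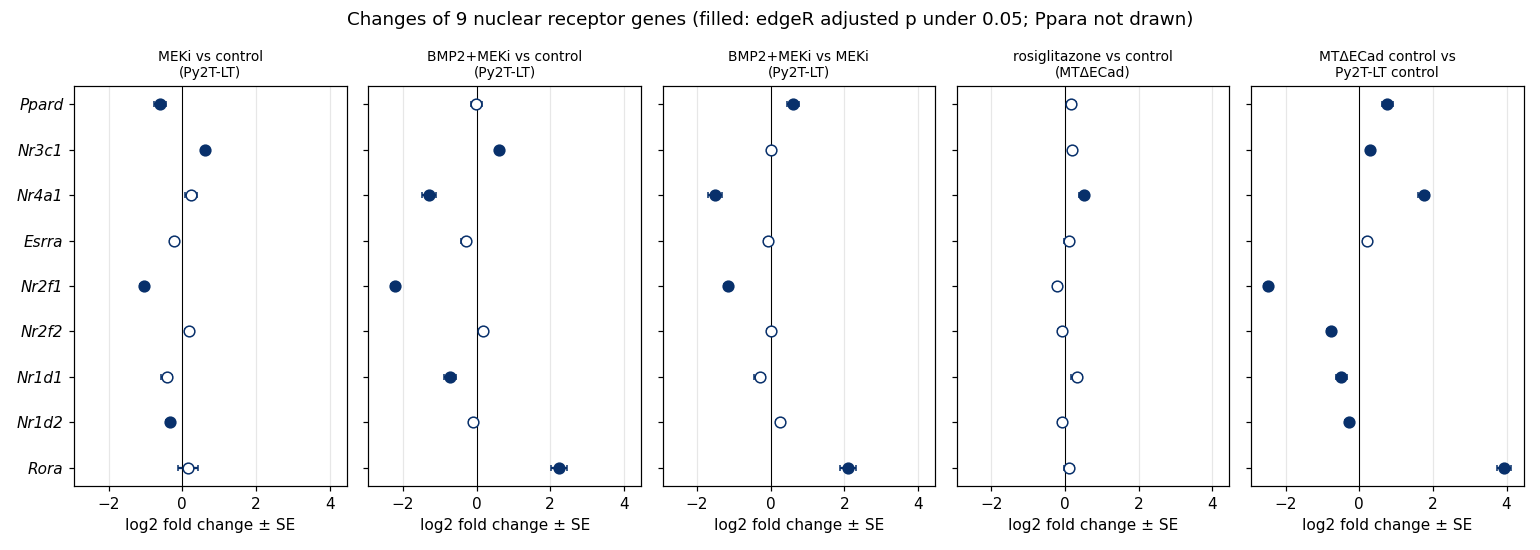
Log2 fold change with standard error of 9 receptor genes in each comparison (edgeR, 2 libraries per group); filled points have an adjusted p under 0.05. Ppara is left out because its Py2T-LT controls had 0 counts; in the panel of BMP2 plus MEK inhibitor against control, Nr2f1 lies furthest to the left, at -2.20, and Rora furthest to the right, at 2.25.

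All 10 genes passed the filter on low counts, Ppara only through the groups in which it was high, so it is kept out of the following counts over the other 9. With the MEK inhibitor, Nr3c1 rose and Ppard, Nr2f1 and Nr1d2 fell, against a background of 16.5% of all tested genes called in either direction (8.98% up, 7.52% down). Without Py2T-LT control replicate 2, 2 rose and 1 fell. With BMP2 and the MEK inhibitor, 2 rose (Nr3c1, Rora) and 3 fell (Nr4a1, Nr2f1, Nr1d1), where 38.5% of all genes were called (19.1% up, 19.4% down). Against the MEK inhibitor alone, the combination raised 2 (Ppard, Rora) and lowered 2 (Nr4a1, Nr2f1), where 37.3% of genes were called (17.9% up, 19.4% down); without combination replicate 1 only Rora rose. Rosiglitazone raised 1 of the 9, Nr4a1, and lowered 0 by edgeR and by DESeq2, where 13.2% of genes were called (7.95% up, 5.26% down). At an unadjusted p of 0.05 edgeR gave 2 up and 0 down, and without rosiglitazone replicate 2 or MTΔECad control replicate 1 the count that rose was 0. Between the control cells of the lines, 4 were higher and 4 lower in MTΔECad, where 61.0% of all genes were called (29.3% up, 31.7% down). The Py2T-LT comparisons share control libraries, and the comparison of lines uses both sets of controls.

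Read per kilobase of merged exon, which allows genes to be compared, Nr1d2 and Nr3c1 were the most abundant of the 10 in every group. In Py2T-LT controls Nr1d2 stood at 32.3 ± 2.83 and Nr3c1 at 29.8 ± 1.00 CPM per kb, and their libraries overlapped. Nr3c1 led in the other 4 groups, at 36.4 to 45.5 CPM per kb, without overlap with Nr1d2 at 25.0 to 30.3. Nr2f1 took the third place in Py2T-LT controls, at 23.0 ± 2.84 CPM per kb, and the seventh in MTΔECad controls, at 4.10 ± 0.325, where it overlapped with Nr2f2. Nr4a1 took the third place in MTΔECad controls, at 11.0 ± 1.24 CPM per kb, against 3.26 ± 0.0800 in Py2T-LT controls. Ppara and Rora were the lowest pair in all Py2T-LT groups, and with BMP2 they overlapped, at 0.812 ± 0.184 and 0.738 ± 0.138. In MTΔECad controls Rora reached 2.35 ± 0.152 CPM per kb, within the range of Ppard at 2.19 ± 0.344, and Ppara stayed lowest at 0.0499 ± 0.0449.

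**Figure D2:**
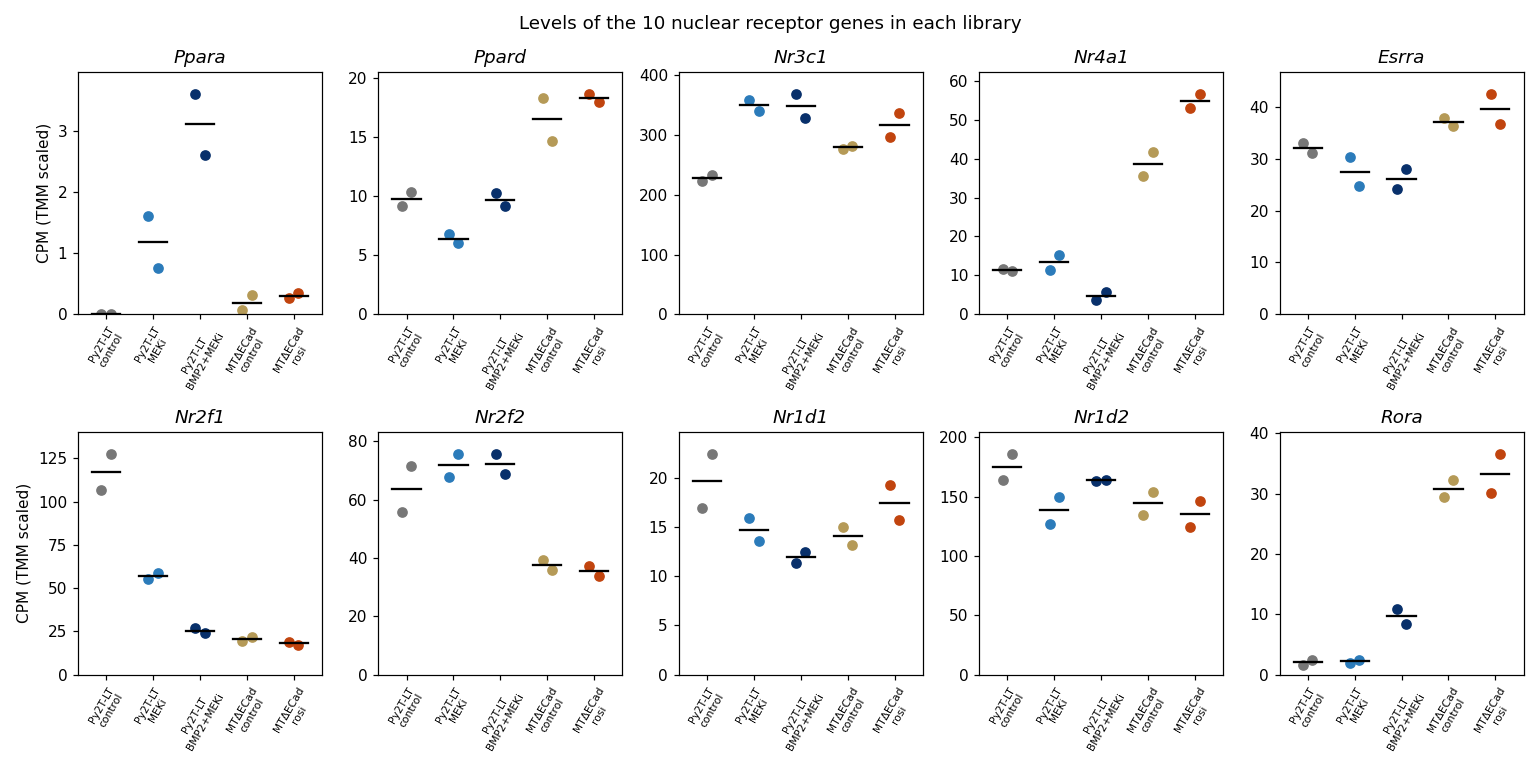
CPM of the 10 receptor genes in each of the 10 libraries on a linear axis from 0, 1 panel per gene and 1 point per library, with the mean of each group as a line. Nr2f1 steps down from 117 to 56.8 and 25.5 CPM over the Py2T-LT groups, while Rora is near 2 CPM in controls and with the MEK inhibitor and at 9.64 CPM with the combination.

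The COUP-TF pair parted in Py2T-LT cells. Nr2f1 (NCBI Gene 13865, chromosome 13, 78188971 to 78198873, minus strand, GRCm38) stood at 107 and 128 CPM in the controls, at 55.0 and 58.6 CPM with the MEK inhibitor, and at 27.2 and 23.8 CPM with the combination. Every control library lay above every inhibitor library, and those lay above both libraries of the combination. The fall was -1.04 ± 0.10 on the log2 scale with the MEK inhibitor (edgeR adjusted p = 1.78e-07) and -2.20 ± 0.11 with the combination (adjusted p = 7.11e-13). The step between the 2 treatments was -1.16 ± 0.11 (adjusted p = 1.98e-08). In bulk libraries, fewer cells that express a gene and less RNA per cell cannot be told apart. Nr2f2 (NCBI Gene 11819, chromosome 7, 70351946 to 70366746, minus strand) stood at 55.6 and 71.7 CPM in the controls, 67.9 and 75.6 with the inhibitor and 75.6 and 68.8 with the combination. These groups overlapped, and the changes of 0.17 ± 0.11 and 0.18 ± 0.11 did not pass the test (adjusted p = 0.324 and 0.2). Without control replicate 2 both changes passed, at 0.37 each (adjusted p = 0.0392 and 0.0136).

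The ratio of Nr2f1 to Nr2f2 per kilobase was 3.26 and 3.01 in the Py2T-LT control libraries, 1.37 and 1.31 with the MEK inhibitor, and 0.609 and 0.586 with the combination. Nr2f1 thus went from the more abundant COUP-TF message in controls to the less abundant with the combination. Without scaling to exon length, the means of Nr2f1 and Nr2f2 were 117 and 63.65 CPM in controls and 25.5 and 72.2 with the combination. With the inhibitor they were 56.8 and 71.75 CPM, so the order there depends on the exon lengths used. In MTΔECad cells both genes were lower than in Py2T-LT cells. Nr2f1 stood at 19.7 and 22.0 CPM in MTΔECad controls, lower by -2.49 ± 0.11, and Nr2f2 at 39.3 and 35.9 CPM, lower by -0.76 ± 0.11. Rosiglitazone left Nr2f1 at 19.0 and 17.0 CPM (log2 fold change -0.21 ± 0.12, adjusted p = 0.31) and Nr2f2 at 37.3 and 33.7 CPM (-0.08 ± 0.12, adjusted p = 0.763). The response of Nr2f1 to rosiglitazone differed from its response to the combination by 1.99 ± 0.16 (adjusted p = 6.16e-09). In that test of responses, 3 of the 9 genes were higher under rosiglitazone and 2 lower, where 24.8% of all genes were called (13.3% up, 11.6% down). The count of 2 became 1 without combination replicate 1 or rosiglitazone replicate 1, and 3 without Py2T-LT control replicate 2. The test compares different agents in different lines, so line and agent cannot be told apart.

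**Figure D3:**
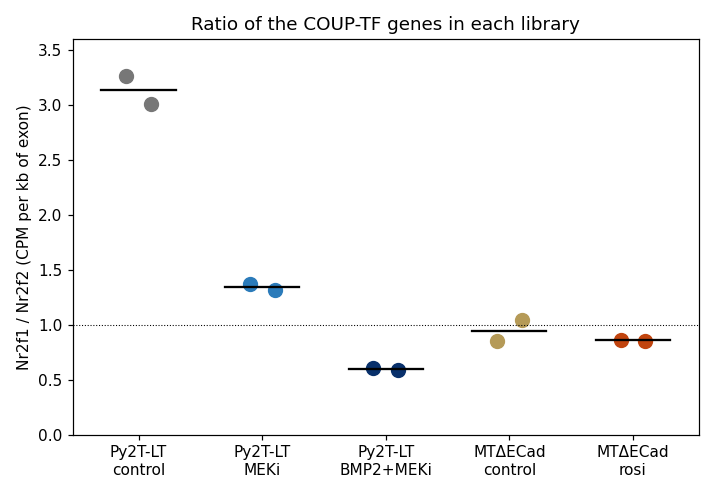
Ratio of Nr2f1 to Nr2f2, each in CPM per kb of merged exon, in every library (points) with the group mean (bar). The ratio lies above 3 in both Py2T-LT controls and at 0.609 and 0.586 with BMP2 and the MEK inhibitor; the MTΔECad libraries lie between 0.848 and 1.04.

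The exons of Nr2f1 share 123 bases with A830082K12Rik on the opposite strand, and the use of strand in counting is not given in the sources used here. That gene fell too, from 21.9 and 20.1 CPM in Py2T-LT controls to 7.37 and 7.44 CPM with the combination, by -1.50 ± 0.16. Reads of both genes cannot be told apart over the shared bases. Exons of Nr2f2 share 643 bases with B130024G19Rik, which stood at 1.51 to 3.07 CPM in all libraries.

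Among the receptors that act on the clock's shared element, Rora had the largest range. Rora (NCBI Gene 19883, chromosome 9, 68653404 to 69388246, plus strand) stood at 1.54 and 2.50 CPM in Py2T-LT controls, 2.00 and 2.47 with the MEK inhibitor, and 10.9 and 8.37 with the combination. The combination lay above all other Py2T-LT libraries, while the inhibitor alone lay within the range of the controls. Rora rose by 2.25 ± 0.22 against control (edgeR adjusted p = 4.14e-08) and by 2.09 ± 0.21 against the inhibitor alone (adjusted p = 8.04e-08). In MTΔECad controls it stood at 29.4 and 32.2 CPM, above every Py2T-LT library and 3.93 ± 0.20 log2 units higher than in Py2T-LT controls. With rosiglitazone it was at 30.1 and 36.5 CPM, a difference of 0.11 ± 0.14 that did not pass the test (adjusted p = 0.712).

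Nr1d1 (NCBI Gene 217166, chromosome 11, 98767932 to 98775377, minus strand) went the other way with the combination. It stood at 17.0 and 22.4 CPM in Py2T-LT controls, 15.9 and 13.6 with the inhibitor, and 11.4 and 12.5 with the combination. The 3 groups did not overlap. Nr1d1 fell by 0.72 ± 0.15 with the combination (edgeR adjusted p = 6.14e-04), while the inhibitor alone gave -0.42 ± 0.15, just outside the threshold (adjusted p = 0.0554). Testing all genes unfiltered brought it past the threshold (adjusted p = 0.0162), as did leaving out control replicate 1 of Py2T-LT (adjusted p = 0.00883). Its 263 exon bases shared with Thra, the thyroid hormone receptor α gene on the opposite strand, limit this count in the same way as for Nr2f1. Thra stood at 42.5 to 47.6 CPM in every Py2T-LT library. In MTΔECad cells Nr1d1 stood at 15.0 and 13.2 CPM in controls and at 19.3 and 15.7 with rosiglitazone (0.31 ± 0.15, adjusted p = 0.215), and Thra rose there by 0.42 ± 0.09.

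Nr1d2 (NCBI Gene 353187, chromosome 14, 18204056 to 18239106, minus strand), the more abundant REV-ERB, varied less. It stood at 164 and 186 CPM in Py2T-LT controls, 127 and 150 with the inhibitor, and 164 in both libraries of the combination. Its fall of 0.34 ± 0.10 with the inhibitor (edgeR adjusted p = 0.0212) was lost without inhibitor replicate 1 (adjusted p = 0.244) or control replicate 2 (adjusted p = 0.192). The rise of 0.24 ± 0.10 from the inhibitor to the combination did not pass (adjusted p = 0.0588), and did pass with no count filter, with the compared groups alone, and without inhibitor replicate 2 (adjusted p = 0.0194, 0.0178 and 0.0159). The libraries of MTΔECad controls (135 and 154 CPM) and of rosiglitazone (125 and 146 CPM) overlapped. Both REV-ERB genes were lower in MTΔECad than in Py2T-LT controls, Nr1d1 by -0.48 ± 0.15 and Nr1d2 by -0.28 ± 0.10. Both calls were lost without Py2T-LT control replicate 2 (adjusted p = 0.184 and 0.166), that of Nr1d1 also without MTΔECad control replicate 2 (adjusted p = 0.0874), and that of Nr1d2 without MTΔECad control replicate 1 (adjusted p = 0.204).

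Of 14 tested circadian clock genes, 4 fell with the MEK inhibitor, where 7.52% of all genes fell. With the combination 3 rose and 5 fell, where 19.1% of all genes rose and 19.4% fell. The median log2 fold change of the 14 was -0.26 with the inhibitor and -0.14 with the combination, beside 0.01 and 0.00 over all genes. The count of 4 became 2 without inhibitor replicate 2, that of 3 became 1 without combination replicate 1, and that of 5 became 3 without control replicate 2. Arntl, the gene of BMAL1 and a shared target of RORα and the REV-ERBs, stood at 32.4 and 35.8 CPM in controls, 30.2 and 28.1 with the inhibitor, and 35.4 and 30.8 with the combination, and passed in neither comparison. The repressor genes Per1 and Per2 fell by 0.68 ± 0.18 and 0.62 ± 0.11 with the inhibitor and by 0.55 ± 0.18 and 0.53 ± 0.11 with the combination. Dbp, an output gene of the clock, fell by 0.62 ± 0.12 with the combination. Bhlhe41 (DEC2) fell by 1.16 ± 0.10 with the combination, while Nfil3, which encodes a repressor of the same sites as DBP, rose by 0.51 ± 0.11. Rosiglitazone lowered 2 of the 14, Bhlhe40 by 0.34 ± 0.10 and Bhlhe41 by 0.32 ± 0.10, where 5.26% of all genes fell. Leaving out rosiglitazone replicate 2 or MTΔECad control replicate 1 brought this count to 0, with 2 at an unadjusted p of 0.05.

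RefSeq (GRCm38.p6) gave start-site windows, from 250 bases before to 50 after a start, for 9 of the 10 receptor genes, 10 windows in all. The pieces shown are those of Rora, the receptor with the largest fitted rise among those with counts in every control library, and of Nr1d2, the only member whose windows held the receptor core hexamer AGGTCA, in capitals. Each is written 5′ to 3′ on the strand of its gene. The first is chr9:68653686-68653785 (plus strand, bases -100 to -1 before a start) and the second chr14:18239137-18239236 (minus strand, bases -130 to -31).
Rora: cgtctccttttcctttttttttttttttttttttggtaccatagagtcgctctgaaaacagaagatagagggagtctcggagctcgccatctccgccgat
Nr1d2: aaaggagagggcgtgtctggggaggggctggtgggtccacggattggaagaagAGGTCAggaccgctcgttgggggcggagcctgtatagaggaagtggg
The hexamer AGGTCA was present in 16.3% of 32851 such windows genome-wide. It is contained in 4 of the other letters searched, the ROR core TAGGTCA, the NBRE AAAGGTCA, the DR1 direct repeat and the ERR element TCAAGGTCA, none of which was found in the windows of the 9 genes. No match to any of the 12 motifs was found in the Rora window.

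NUR77 was lowered by the combination and was higher in the other line. Nr4a1 (NCBI Gene 15370, chromosome 15, 101253902 to 101274795, plus strand) stood at 11.6 and 11.2 CPM in Py2T-LT controls, 11.4 and 15.2 with the MEK inhibitor, and 3.62 and 5.64 with the combination. Both libraries of the combination lay below every other library, while the inhibitor overlapped the controls. Nr4a1 fell by 1.29 ± 0.19 against control (edgeR adjusted p = 1.38e-05) and by 1.52 ± 0.18 against the inhibitor alone (adjusted p = 1.46e-06). MTΔECad controls held 35.5 and 41.6 CPM, 1.75 ± 0.15 higher than Py2T-LT controls on the log2 scale, and rosiglitazone held 53.0 and 56.6 CPM. The rise of 0.51 ± 0.13 with rosiglitazone (adjusted p = 0.0137) was lost without rosiglitazone replicate 2 (adjusted p = 0.0969) and without MTΔECad control replicate 1 (adjusted p = 0.172). The 2 responses differed by 1.79 ± 0.23 (adjusted p = 6.43e-06).

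The Nr4a1 start-site window is shown because it held 4 copies of the CRE-like letters TGCGTCA, which 2.12% of the 32851 windows held at all; capitals mark these and 1 GC-rich SMAD element, GGCGCC. The piece is chr15:101266596-101266845 (plus strand), bases -250 to -1 before a start within the gene's span.
Nr4a1: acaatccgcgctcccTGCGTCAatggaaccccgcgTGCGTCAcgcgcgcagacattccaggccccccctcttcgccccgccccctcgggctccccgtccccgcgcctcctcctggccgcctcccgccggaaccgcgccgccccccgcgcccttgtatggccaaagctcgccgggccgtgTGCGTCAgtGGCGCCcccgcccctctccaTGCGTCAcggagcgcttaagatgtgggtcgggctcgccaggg
GGCGCC was present in 11.9% of all windows and in those of 4 receptor genes, Ppara, Ppard, Nr4a1 and Esrra. Of these, Nr4a1 fell with the combination against control, and Ppard and Esrra did not pass. From the inhibitor to the combination Nr4a1 fell and Esrra did not pass. Ppard rose there by 0.60 ± 0.16, a call not kept under every alternative run. Ppara is described without a test. A match is a description of letters and not a measured binding site.

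The relatives of NUR77 took other courses. Nr4a2 (NURR1) rose with the combination, from 5.24 and 5.94 to 8.64 and 9.71 CPM, by 0.72 ± 0.20 (edgeR adjusted p = 0.00697), and stood at 4.97 and 6.68 CPM with the inhibitor. Nr4a3 (NOR1) fell with the inhibitor already, from 2.22 and 3.62 to 1.16 and 0.603 CPM, by 1.75 ± 0.35, and stood at 0.670 and 0.814 CPM with the combination. In MTΔECad controls Nr4a3 was at 20.7 and 15.3 CPM. Of 14 immediate early genes, 3 rose and 1 fell with the inhibitor, where 8.98% of all genes rose and 7.52% fell. With the combination 4 rose and 6 fell, where 19.1% of all genes rose and 19.4% fell. The medians of the 14 were -0.12 and -0.09, beside 0.01 and 0.00 over all genes. Egr1 fell from 20.5 and 28.9 CPM to 7.82 and 9.42 and then to 2.68 and 3.78, and Egr2 fell by 2.02 ± 0.25 with the combination. Jun rose by 1.12 ± 0.10 with the inhibitor and stood at its control level with the combination (0.03 ± 0.10). Junb rose by 1.47 ± 0.20 with the combination. Rosiglitazone raised 1 of the 14, Btg2 by 0.81 ± 0.12, where 7.95% of all genes rose. It lowered 1, Fosl1 by 0.63 ± 0.17, where 5.26% of all genes fell. The fall of Fosl1 was not called without rosiglitazone replicate 2 or MTΔECad control replicate 2. Without rosiglitazone replicate 1, 2 of the 14 rose.

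The fatty acid receptors also differed. Ppara (NCBI Gene 19013, chromosome 15, 85734910 to 85806851, plus strand) had 0 counts in both Py2T-LT controls, 25 and 14 counts with the MEK inhibitor, and 54 and 45 counts with the combination. Against a floor of 3 counts per library (0.186 CPM), it was at least 6.40-fold higher with the inhibitor and at least 16.7-fold higher with the combination. It remained scarce, at 1.61 and 0.767 CPM and then 3.62 and 2.62 CPM. Pooled over libraries and scaled for depth, the combination held 2.67 times the counts of the inhibitor alone, a description and not a test. Ppara was kept for testing only through the groups in which it was high, so no test of it is given. MTΔECad controls held 1 and 5 counts and rosiglitazone 4 and 5, 1.53 times as many per unit depth, with overlapping libraries. The floor reflects counting error alone, and neither it nor these ratios take account of the spread between replicates. The 6 counts of the MTΔECad controls against 0 in the Py2T-LT controls lie at the floor, so no fold is given.

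Ppard (NCBI Gene 19015, chromosome 17, 28232754 to 28301469, plus strand) fell and returned. It stood at 9.12 and 10.3 CPM in Py2T-LT controls, 6.78 and 6.03 with the inhibitor, and 10.2 and 9.13 with the combination. The inhibitor libraries lay below all others, and those of the combination lay within the control range. Ppard fell by 0.60 ± 0.16 with the inhibitor (edgeR adjusted p = 0.0109), a call lost without inhibitor replicate 2 (adjusted p = 0.116) and without control replicate 2 (adjusted p = 0.11). It rose by 0.60 ± 0.16 from the inhibitor to the combination (adjusted p = 0.00532), a call lost without combination replicate 1 (adjusted p = 0.0577) and without inhibitor replicate 2 (adjusted p = 0.0604). MTΔECad controls were higher than Py2T-LT controls by 0.76 ± 0.14, at 18.3 and 14.7 CPM, and overlapped with rosiglitazone, at 18.6 and 17.9 CPM (0.15 ± 0.14, adjusted p = 0.577).

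Of 15 tested genes known as PPARα and PPARδ targets, 5 rose and 1 fell with the inhibitor, where 8.98% of all genes rose and 7.52% fell. With the combination 10 rose, where 19.1% of all genes rose, and with rosiglitazone 14, where 7.95% did. The medians were 0.15, 0.46 and 1.08, beside 0.01, 0.00 and -0.02 over all genes; with Vnn1, which had 0 counts in MTΔECad controls, set to its bound, the median under rosiglitazone was 1.02. The 1 that fell with the inhibitor, Cpt1b, was not called when any 1 of the 4 compared libraries was left out. Many of these genes are also targets of PPARγ. Angptl4, which encodes an inhibitor of lipoprotein lipase, rose from 33.6 and 31.4 CPM to 91.7 and 92.2 with the inhibitor and to 116 and 141 with the combination. With rosiglitazone it rose from 5.15 and 5.45 to 95.9 and 81.4 CPM, by 4.06 ± 0.13. Pdk4, a kinase gene that restrains glucose oxidation, stood at 0.185 and 0.0625 CPM in Py2T-LT controls and 3.62 and 4.59 with the combination. Ehhadh, a gene of peroxisomal β-oxidation, rose by 2.66 ± 0.23 with the combination and by 2.07 ± 0.14 with rosiglitazone.

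The dimer partner Rxra rose in each treatment, by 0.46 ± 0.08 with the inhibitor, 1.40 ± 0.08 with the combination and 0.82 ± 0.08 with rosiglitazone. Pparg itself stood at 3.14 and 3.94 CPM in Py2T-LT controls, 11.9 and 13.9 with the inhibitor and 25.0 and 25.1 with the combination. In MTΔECad cells it was at 68.8 and 67.3 CPM in controls and 63.2 and 61.8 with rosiglitazone, where Pparg did not pass the test. Adipocyte genes moved alongside: 9 of 10 rose with the inhibitor, 10 of 10 with the combination and 8 of 10 with rosiglitazone. The shares of all genes that rose were 8.98%, 19.1% and 7.95%. The summed level of the 10 was 666 to 678 CPM in Py2T-LT controls, 1044 to 1094 with the inhibitor and 1339 to 1487 with the combination. In MTΔECad cells the sum was 1712 to 1848 CPM in controls and 4131 to 4564 with rosiglitazone, and none of the 10 was at 0 in both libraries of any group. Their part in the receptor changes was not tested.

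Nr3c1 (NCBI Gene 14815, chromosome 18, minus strand), the glucocorticoid receptor gene, rose with the MEK inhibitor alone and with the combination. Its libraries stood at 223 and 234 CPM in Py2T-LT controls, 359 and 341 with the inhibitor, and 369 and 329 with the combination. Both treated groups lay above the controls and overlapped each other. The rise was 0.61 ± 0.08 with the inhibitor (edgeR adjusted p = 9.88e-06) and 0.61 ± 0.08 with the combination (adjusted p = 2.46e-06), with a difference of -0.00 ± 0.08 between them. MTΔECad controls, at 277 and 282 CPM, were 0.29 ± 0.08 higher than Py2T-LT controls. Rosiglitazone libraries, at 297 and 337 CPM, lay above them without passing (0.18 ± 0.08, adjusted p = 0.159). The response to rosiglitazone was lower than that to the combination by -0.43 ± 0.11 (adjusted p = 0.00732), which was lost without combination replicate 1 (adjusted p = 0.0619) or rosiglitazone replicate 1 (adjusted p = 0.051).

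Known glucocorticoid receptor targets moved in both directions. Their list shares Per1 with the clock genes and Dusp1 with the immediate early genes. Of 13 tested targets, 6 rose and 2 fell with the inhibitor, where 8.98% of all genes rose and 7.52% fell. With the combination 3 rose and 5 fell, where 19.1% of all genes rose and 19.4% fell. From the inhibitor to the combination 0 rose and 6 fell, where 17.9% of all genes rose and 19.4% fell. The medians of the 13 were 0.26, -0.14 and -0.26, beside 0.01, 0.00 and 0.01 over all genes. Without inhibitor replicate 1 the first count was 2, without inhibitor replicate 2 the count of 2 was 0, and without combination replicate 2 the count of 3 was 1. Fkbp5, a chaperone gene used as a readout of the receptor, stood at 20.5 and 22.4 CPM in controls, 23.3 and 24.0 with the inhibitor, and 11.8 and 13.7 with the combination, a fall of 0.75 ± 0.12 against control. Tsc22d3 (GILZ) rose by 0.40 ± 0.11 with the inhibitor and stood 0.22 ± 0.11 higher with the combination, which did not pass. The metallothionein gene Mt1 rose by 0.41 ± 0.10 with the inhibitor and fell by 0.84 ± 0.10 with the combination. The kinase gene Sgk1 rose in both, by 0.92 ± 0.18 and 0.66 ± 0.18, and Lcn2 rose by 1.11 ± 0.12 and 0.96 ± 0.12. With rosiglitazone 1 rose, Glul by 0.69 ± 0.14, and 2 fell, among them Lcn2 by 1.11 ± 0.12. The shares of all genes were 7.95% up and 5.26% down.

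Of the 5 tested genes for enzymes and chaperones that serve the receptor, 4 fell from the inhibitor to the combination, Hsd11b1, Hsp90aa1, Hsp90ab1 and Fkbp4, where 19.4% of all genes fell. Their median log2 fold change was -0.27 beside 0.01 over all genes. Against control, 1 of the 5 rose with the inhibitor (Hsd11b1, median 0.05), where 8.98% of all genes rose. With the combination 2 fell (Hsp90ab1 and Fkbp4, median -0.22), where 19.4% of all genes fell. The count of 1 became 0 without either inhibitor library or without control replicate 1, and the count of 2 became 1 without combination replicate 1 or control replicate 2. Rosiglitazone raised 1 of the 5, Hsd11b1, with a median of -0.00, where 7.95% of all genes rose. Hsd11b1, whose enzyme regenerates active glucocorticoid inside cells, had low levels in Py2T-LT cells. It stood at 0.801 and 1.81 CPM in Py2T-LT controls, 2.58 and 2.30 with the inhibitor, and 0.737 and 0.698 with the combination. In MTΔECad cells it went from 4.52 and 3.32 to 108 and 106 CPM with rosiglitazone, a rise of 4.78 ± 0.16 (edgeR adjusted p = 6e-15). The heat shock protein genes Hsp90aa1 and Hsp90ab1 fell by 0.30 ± 0.08 and 0.27 ± 0.07 from the inhibitor to the combination.

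ERRα changed little. Esrra (NCBI Gene 26379, chromosome 19, 6910977 to 6922048, minus strand) stood at 33.0 and 31.2 CPM in Py2T-LT controls, 30.4 and 24.7 with the inhibitor, and 24.2 and 28.0 with the combination. Both treated groups lay below the controls and overlapped each other. The difference of -0.30 ± 0.12 with the combination was just outside the threshold (edgeR adjusted p = 0.0504). It passed with no count filter (0.0359), with the compared groups alone (0.0421) and without combination replicate 2 (0.0362), all as adjusted p. MTΔECad controls stood at 37.8 and 36.2 CPM and rosiglitazone at 42.5 and 36.7, which did not differ past the threshold (0.10 ± 0.11, adjusted p = 0.684). Esrra shares 73 exon bases with Trmt112 on the opposite strand and 91 with the microRNA gene Mir6990, at most 5.57 and 0.418 CPM.

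Of the targets known for ERRα and PGC-1, 15 of 19 tested rose under rosiglitazone, where 7.95% of all genes rose. Their median was 0.46 beside -0.02 over all genes. Acadm and Pdk4 are also on the list of PPARα and PPARδ targets. Cs, the citrate synthase gene, rose from 302 and 301 to 648 and 583 CPM, by 1.03 ± 0.08, and Idh3a, of the citric acid cycle, by 1.06 ± 0.08. The cytochrome c gene Cycs rose by 1.26 ± 0.17 and the fatty acid dehydrogenase gene Acadm by 2.05 ± 0.08. Both coactivator genes rose under rosiglitazone, and the part of the coactivators, ERRα or PPARγ in the changes of these targets was not tested. Ppargc1a (PGC-1α) went from 6.96 and 5.76 to 14.1 and 17.8 CPM, by 1.33 ± 0.15, and Ppargc1b (PGC-1β) from 5.22 and 4.95 to 13.0 and 11.9 CPM, by 1.29 ± 0.17. In Py2T-LT cells the same 19 gave 3 up with the inhibitor, where 8.98% of all genes rose. The combination gave 2 up and 4 down, where 19.1% of all genes rose and 19.4% fell. The medians of the 19 were 0.11 and -0.00. The 3 became 0 without inhibitor replicate 1 or control replicate 2, and the 4 became 1 without combination replicate 1 or control replicate 1. The strip plot of target lists sets these genes beside their receptor.

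**Figure D4:**
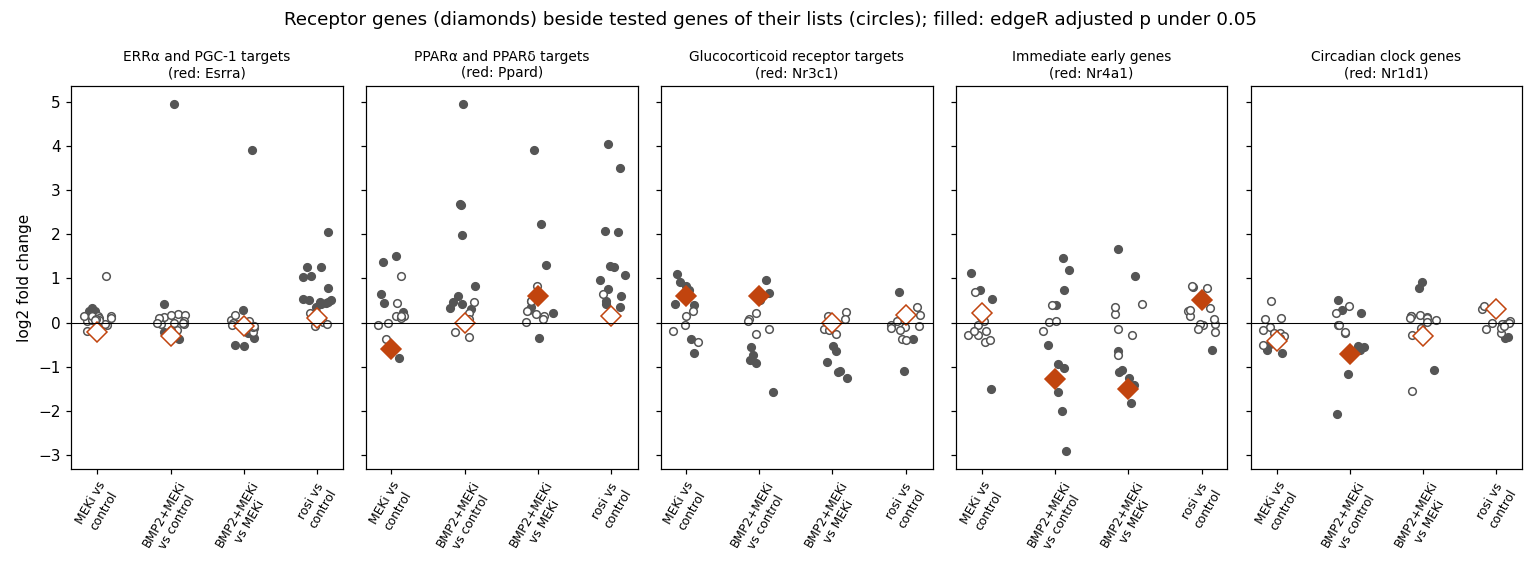
Log2 fold change (edgeR) of tested genes of 5 lists, as circles, beside 1 receptor each, as a diamond, in 4 comparisons; filled symbols have an adjusted p under 0.05, and genes with 0 counts in a compared group are not drawn. Under rosiglitazone 15 of 19 ERRα and PGC-1 targets rose while Esrra was at 0.10. With BMP2 and the MEK inhibitor Nr4a1 fell, and of 14 immediate early genes 4 rose and 6 fell. Over all genes, 7.95% rose under rosiglitazone, and 19.1% rose and 19.4% fell with BMP2 and the MEK inhibitor.

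Among the rest of the receptor family, 32 of 39 listed genes had a row and 24 were tested. With the MEK inhibitor 4 rose and 5 fell, where 8.98% of all genes rose and 7.52% fell. With the combination 8 rose and 6 fell, where 19.1% of all genes rose and 19.4% fell. With rosiglitazone 6 rose and 3 fell, where 7.95% of all genes rose and 5.26% fell. The medians of the 24 were 0.05, 0.02 and 0.03, beside 0.01, 0.00 and -0.02 over all genes. Rarb, a retinoic acid receptor gene, went from 10.2 and 11.1 CPM in Py2T-LT controls to 3.36 and 2.25 with the inhibitor, and with the combination held 0.134 and 0 CPM. Rosiglitazone lowered Rarb in the other line by 1.56 ± 0.20, from 12.8 and 11.8 to 4.33 and 3.99 CPM. Nr1h3, the gene of the oxysterol receptor LXRα, rose by 2.10 ± 0.38, 3.28 ± 0.33 and 2.31 ± 0.19 in the 3 treatments. Vdr, the vitamin D receptor gene, fell by 0.97 ± 0.08 with the inhibitor and stood at its control level with the combination (0.04 ± 0.08). Rorb, a relative of Rora, rose with rosiglitazone by 1.49 ± 0.14, whereas Rora did not pass there. Thrb, the thyroid hormone receptor β gene, stood at 20.4 and 22.2 CPM in Py2T-LT controls but at 0.139 and 0.125 in MTΔECad controls, and reached 1.64 and 1.24 CPM with rosiglitazone.

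Of 18 coregulator genes, 1 rose and 2 fell with the inhibitor, where 8.98% of all genes rose and 7.52% fell. With the combination 2 rose and 2 fell, where 19.1% of all genes rose and 19.4% fell. The medians of the 18 were -0.15 and -0.04, beside 0.01 and 0.00 over all genes. Ncoa3, a coactivator gene, fell in both, by 0.46 ± 0.09 and 1.19 ± 0.10. Without Py2T-LT control replicate 1, 8 fell with the inhibitor and 7 with the combination. The 1 that rose with the inhibitor became 0 when any 1 of the 4 compared libraries was left out, and the 2 that fell became 1 without either inhibitor library or without control replicate 2. The coactivator gene Ep300 stood at 77.8 CPM in that library and 142 CPM in control replicate 2, and Crebbp at 71.2 and 136 CPM. Rosiglitazone raised 5 of the 18, among them Nrip1 (RIP140), by 0.61 ± 0.10, where 7.95% of all genes rose.

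The genes whose pattern was most like each receptor were ranked by Pearson r of log2 CPM over the 10 libraries with the mean of each line subtracted. The libraries share their groups, so r describes the likeness of group patterns and not the size of the changes. For Nr2f1 these were Tacc1 (0.994), Il6ra (0.992) and Tmc3 (0.989), and for Rora Vps26b (0.989) and Tdrd3 (0.989). Nr4a1 was followed most closely by Utp18 (0.978), Ppil1 (0.975) and Psat1 (0.973). Utp18 went from 61.9 CPM in Py2T-LT controls to 51.45 with the combination, where Nr4a1 went from 11.45 to 4.63 CPM. Nr3c1 was most like Pappa (0.983), Deptor (0.971) and Pqlc3 (0.965), and Ppara most like Acat3 (0.984), Tiparp (0.981) and Slc44a3 (0.979). Slc44a3 was near the floor in Py2T-LT cells, at 0 CPM in controls, 0.515 with the inhibitor and 0.759 with the combination. For Nr1d1 they were Etl4, Dot1l and Rbm47 (0.973, 0.960 and 0.953), and for Ppard Dock4, Gpr153 and Thbs3 (0.946, 0.939 and 0.934). Nr2f2, Nr1d2 and Esrra varied by less than 0.5 log2 units within the lines and were given none.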

How the data were processed

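Poly-A RNA, per the labels' protocols, was sequenced after preparation with a stranded total RNA kit. The authors deposited unnormalised read counts per gene; the submitters' processing notes name STAR and mm10. The counter, its annotation and its use of strand are not stated there. RefSeq GRCm38.p6 named 18057 of 18103 gene identifiers, and GENCODE M21 gave 17605 exon lengths. Counts were fitted with edgeR 4.0.16 (R 4.3.3; TMM, filterByExpr, robust quasi-likelihood, 5 group means, 5 residual degrees of freedom), common coefficient of variation 7.07%, in 6 contrasts. One count was worth 0.0548 to 0.0696 CPM. Each p-value rests on an estimate of a gene's spread shared by all groups, each of 2 experiments, and drawn towards that of other genes. The larger spread of the Py2T-LT controls is thus averaged with that of the other groups. The code was tested on simulated data. Alternatives were RLE scaling, no filter, DESeq2 1.42.0, a replicate block, only the compared groups, and leaving out each library, where a lone sample is assumed to vary like the others. The receptors and lists were chosen with earlier results of these data known. Text names come from the 10 receptors, at most 3 called genes per list, direction and comparison by size, and preset readouts; Idh3a, Ep300 and Crebbp were added after their values were seen. Likeness used log2 CPM with a prior count of 2 and 3 genes per receptor; some genes are not reported here. Start-site windows were searched on both strands for 12 motifs: the E-box CACGTG, the D-box TTATGTAA, the ROR core TAGGTCA, the receptor hexamer AGGTCA, the NBRE AAAGGTCA, the ERR element TCAAGGTCA, the cAMP response element TGACGTCA, the CRE-like letters TGCGTCA, the SMAD elements GGCGCC (GC-rich) and GTCTAGAC (palindrome), DR1 and the glucocorticoid response element.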

Additional observations from a re-analysis of the deposited data

How the results depend on the processing

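Of 27 called results of the receptors other than Ppara, 20 kept their call and direction under every alternative run, and 0 of the called ones reversed; the 7 lost are given with each gene above. Fitting only the compared groups turned Nr2f2 between the combination and the MEK inhibitor to -0.0028, and the replicate block turned the difference of responses of Nr1d2 to -0.0029, both uncalled. Deviations of replicate 1 from the group mean were little correlated between groups (-0.106 to 0.1), which does not settle whether replicate numbers pair the samples. With the replicate block, 2245 genes were called with the MEK inhibitor, 5148 with the combination and 1833 with rosiglitazone; Esrra (combination against control) and Nr1d2 (combination against inhibitor) gained calls, at adjusted p = 0.0474 and 0.0125. Leaving out 1 library at a time gave these ranges of log2 fold change for uncalled results, other than those of Ppara, that reversed. With the MEK inhibitor they were -0.0016 to 0.4109 for Nr4a1 and -0.1523 to 0.543 for Rora, and with the combination -0.1013 to 0.0834 for Ppard. Between the combination and the inhibitor they were -0.2166 to 0.0814 for Esrra, -0.0705 to 0.0871 for Nr2f2 and -0.0974 to 0.0777 for Nr3c1. With rosiglitazone they were -0.0124 to 0.2008 for Esrra, -0.2128 to 0.0175 for Nr1d2, -0.0502 to 2.00 for Ppara, -0.0015 to 0.3194 for Ppard and -0.0313 to 0.2448 for Rora. The difference of responses of Nr1d2 ran from -0.1175 to 0.113. Over the same omissions, genes that fell ranged from 593 to 1158 with the inhibitor (989 in all libraries; 593 without inhibitor replicate 2) and from 353 to 463 with rosiglitazone (691; 353 without MTΔECad control replicate 1), where genes called ranged from 1112 to 1338 (1737 in all libraries). Among the 9 receptors, 1 to 2 rose and 1 to 4 fell with the inhibitor, 1 to 2 rose from the inhibitor to the combination, 0 to 1 rose with rosiglitazone, 2 to 4 were lower in MTΔECad, and 1 to 3 were lower in the difference of responses. DESeq2 called 0 coregulators up and 1 down with the inhibitor (edgeR 1 and 2) and 0 PPAR targets down (edgeR 1); with no count filter 3 immediate early genes rose with rosiglitazone (filtered 1). Ppara, at 0 to 54 counts, is limited by depth.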
